A study of Mus musculus with 3 samples.

Results

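The cells described here are 247 cells of the E13.5 mouse trunk, chosen by the UMIs (unique molecular identifiers, each counted as 1 captured transcript) of 9 genes and read against the other trunk cells with a Pdgfra UMI. A cell had 4000 UMIs or more, 500 genes or more and at most 10% of its UMIs from mitochondrial genes. A member was a cell selected on at least 1 UMI of Clec3b and at least 2 of Mfap5, with no UMI of Pparg or Cebpa, at most 2 of Scx and Tnmd together, and at most 1 of Apcdd1, Sp5 and Nrgn together. The 247 members were 3.47% of the 7114 cells of the E13.5 library (95% interval 3.06 to 3.92) and were drawn from 19567 cells in the whole series. The working name for such cells is Clec3b and Mfap5 fascia-like fibroblasts, and the data bear it out in part, as given below.

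The study profiled mouse trunks from the neck to the upper thorax, without the forelimbs and the organs of the chest, by droplet single-cell RNA sequencing, in a search for the origin of brown adipose tissue. Each of E11.5, E12.5 and E13.5 is 1 library, made from the pooled cells of 3 littermates. The labels give no strain, genotype, treatment or sex, and all 3 groups are described alike except for the day. With 1 library per stage there is no replicate and no test, and every interval below is an exact 95% interval that covers counting error only.

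Fascia is the sheet of loose and dense connective tissue between skin, fat and muscle, and the adventitia is its counterpart around vessels. Their fibroblasts make collagens, microfibrils and the matrix molecules that let layers glide, and in adult tissues many of them carry Pi16, Dpp4 or Cd55 at the surface. Clec3b encodes tetranectin, a secreted protein that binds plasminogen, Mfap5 encodes a glycoprotein of the microfibrils that surround elastic fibres, and Ren1 encodes renin, the protease that cuts angiotensinogen and is best known from the kidney.

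The values that chose the members are given as a description. Members had 1 to 13 Clec3b UMIs (median 2) and 2 to 37 Mfap5 UMIs (median 4). Many stood at the edge of the rule, since 94 members had a single Clec3b UMI and 51 had 2 Mfap5 UMIs. Clec3b reached its minimum in 1123 cells and Mfap5 in 832, and 401 cells had both. Of these 401, UMIs of the adipogenic factors Pparg and Cebpa removed 108, the tendon genes Scx and Tnmd 16, and the upper dermis genes Apcdd1, Sp5 and Nrgn 48, with 17 cells removed by more than 1 of the exclusions. Just inside the rule, the 25 members with 1 Clec3b and 2 Mfap5 UMIs had Ren1 at 75.4 CPM (CPM, the UMIs of a gene in the summed cells scaled to the total that the unit is named for, 46.0 to 116). Just outside, the 97 cells with Clec3b, 1 Mfap5 UMI and none of the exclusions had Ren1 at 15.2 CPM (8.83 to 24.3), and the 63 of them with a Pdgfra UMI had it at 20.2 CPM (11.3 to 33.3).

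Depth was close to that of the comparison cells. Members had a median of 11311 UMIs (4514 to 49704) and 3532 genes, and the 3089 other cells with a Pdgfra UMI a median of 10374 UMIs and 3317 genes. Called doublets made up 2.83% of members and 3.24% of the others. Libraries shared 10 to 16 cell barcodes by pair. Among 371 cells with macrophage transcripts and no Pdgfra, which should lack both genes, 4 reached Clec3b and Mfap5 together (1.08%, 0.295 to 2.74) at a median of 12193 UMIs, and 1 did once cells were thinned to 4000 UMIs. Thinned in the same way, 30.8% of members still had both. In droplets of 50 to 500 UMIs, read as free RNA, Clec3b stood at 6.70 CPM and Mfap5 at 19.7 CPM. Free RNA made up 2.18% of a member's UMIs when judged by haemoglobin and 24.7% when judged by Myog, which gives 0.00165 or 0.0187 free Clec3b UMIs and 0.00485 or 0.0550 free Mfap5 UMIs per member.

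Most members carried the transcripts of fibroblasts. A Pdgfra UMI was found in 166 of 247 (67.2%), and 75 of the 81 members without one had 50 or more UMIs of the collagen genes Col1a1, Col1a2 and Col3a1. That collagen level was reached by 94.3% of members and by 74.1% of the other Pdgfra cells, of which 45.4% had exactly 1 Pdgfra UMI. Pdgfra itself stood at 112 CPM in members and 181 CPM in the others, a comparison that the Pdgfra rule of the second group sets. Dcn, which encodes the proteoglycan decorin, was at 1113 against 773 CPM (log2 ratio 0.53, 0.48 to 0.58), and Lum, for lumican, was at 577 against 569 CPM (0.02, -0.05 to 0.09).

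Ren1, the marker the rule did not use, was the gene that set members apart most by the rule for named genes. It stood at 86.9 CPM in members (76.9 to 97.8) and at 8.41 CPM in the other Pdgfra cells (7.50 to 9.40), a log2 ratio of 3.37 (3.13 to 3.61). Most members nevertheless had no Ren1 UMI. It was found in 60 of 247 members (24.3%) and 4.63% of the others, and after thinning in 17.4% and 2.33%. The 274 Ren1 UMIs ranged from 0 to 21 per cell, 12 cells held 50% of them and 7 cells had 10 or more. Ren1 was thus detected in a minority of members, at a high level in some of them.

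**Figure D1:**
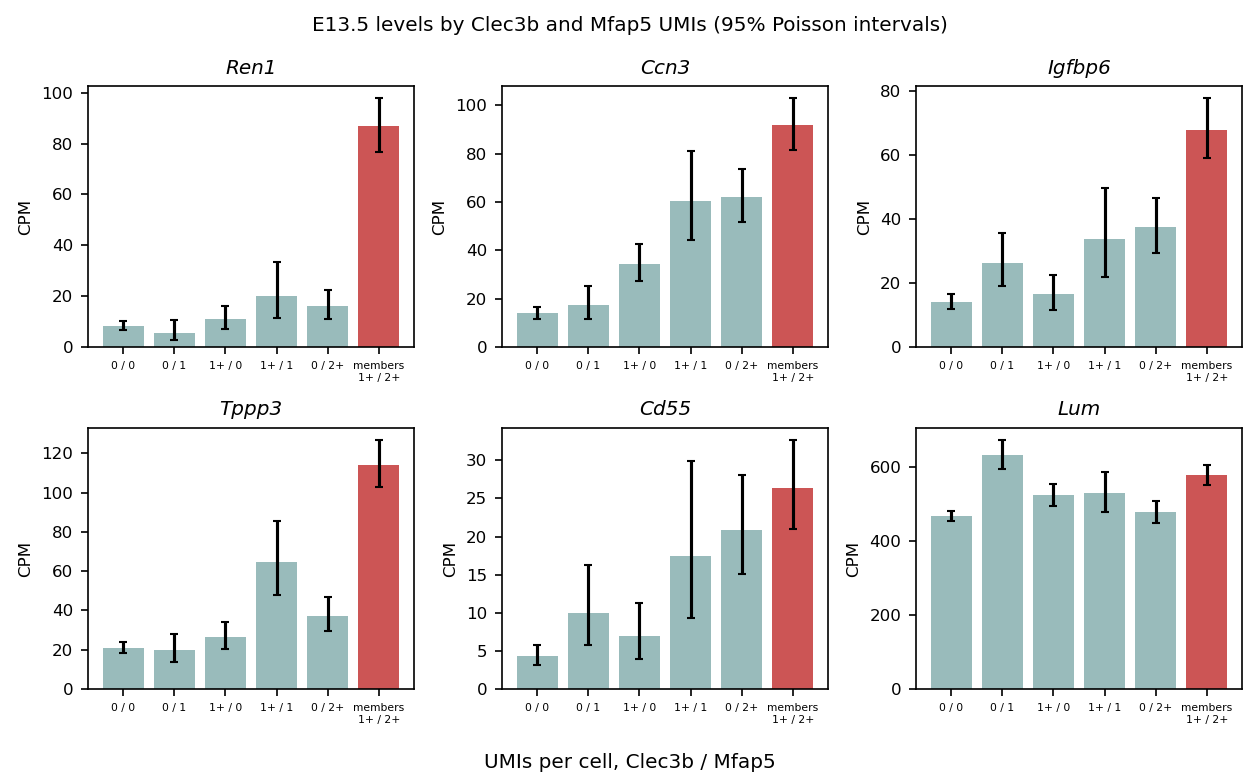
Levels in CPM (vertical axes, from 0) of 6 genes in E13.5 cells sorted by their Clec3b and Mfap5 UMIs (horizontal axis). All non-members shown have a Pdgfra UMI and pass the 3 exclusions, and error bars are 95% Poisson intervals. Ren1 is at 86.9 CPM in members and at 5.62 to 20.2 CPM in the 5 other classes, while Lum is not at its highest in members.

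Neither chosen gene alone was accompanied by that Ren1 level. Among Pdgfra cells that passed the exclusions, Ren1 was at 8.20 CPM (6.50 to 10.2) in 967 cells with neither gene. It was at 10.8 CPM (7.0 to 16.0) in 225 cells with Clec3b and no Mfap5, and at 16.0 CPM (11.0 to 22.4) in 168 cells with at least 2 Mfap5 UMIs and no Clec3b. The interval of the members, from 76.9 CPM, overlaps none of these, and the 166 members with a Pdgfra UMI, like the cells of these classes, had Ren1 at 98.7 CPM (86.0 to 113). Ccn3 behaved more gradually, from 13.8 CPM with neither gene to 34.2 CPM with Clec3b alone, 62.0 CPM with at least 2 Mfap5 UMIs alone and 91.6 CPM in members. Cd55 with at least 2 Mfap5 UMIs and no Clec3b was at 20.8 CPM, and its interval (15.1 to 28.0) overlaps that of the members (21.0 to 32.6). Within members Ren1 was at 53.7 CPM with 1 Clec3b UMI, 34.8 CPM with 2 and 154 CPM with 3 or more, so it did not climb steadily. By Mfap5 it was at 87.2 CPM with 2 UMIs, 54.6 with 3, 65.9 with 4 to 9 and 151 in the 44 members with 10 or more, whose median depth was also higher (15076 UMIs).

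Across the transcriptome members differed little from other Pdgfra cells. Of 10307 genes with a mean of at least 5 CPM over the 2 groups, 133 were 2-fold or more higher in members (1.29%) and 208 were 2-fold or more lower (2.02%), and the median log2 ratio of all of them was -0.01. These counts have no test behind them, and they are the background against which the lists below are read. The gene lists were drawn up by function with earlier results of these data in view.

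The list of fascia and adventitia fibroblast genes had 20 of its 30 genes at a level that could be described, and 9 of the 20 were 2-fold or more higher in members, against 1.29% of all genes. None of the 20 was 2-fold lower, 19 of them lay above 0 and their median log2 ratio was 0.92. The genes of the list under that level are not in these counts, among them Thy1, which is given below. Ccn3, a matricellular protein, was at 91.6 against 23.3 CPM (1.98, 1.78 to 2.17). Cd55, a surface inhibitor of complement, was at 26.3 against 7.02 CPM (1.91, 1.53 to 2.27). Dpp4, a surface peptidase, was at 15.5 against 4.75 CPM (1.71, 1.22 to 2.17). Anxa3 (1.45), Plac8 (1.42), Sema3c (1.32), Tmeff2 (1.25), Emilin2 (1.14) and Opcml (1.13) were the other 6 past 2-fold. Sema3c, a secreted guidance cue, had the highest levels of these, at 133 against 53.6 CPM. Cd34, a surface sialomucin of stromal progenitors, was at 77.0 against 42.4 CPM (0.86, 0.66 to 1.06), and Igfbp5 was the 1 gene below 0 (-0.32).

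The adult markers at the far end of that list were close to absent. Pi16, which names the adult adventitial fibroblast, had 6 UMIs in 6 of the 247 members. Ly6c1 had 1 UMI, Ly6a 9, Thy1 8, Has1 8, Procr 7 and Dact2 7, and Ace had 0. Dpp4 was found in 36 members (14.6%), or in 17 (6.88%) at 4000 UMIs. Clec3b and Mfap5 chose the cells, so their levels cannot speak for the label of fascia-like fibroblasts. Beyond them the label has genes such as Ccn3, Cd55 and Sema3c, from a list drawn up with earlier results of these data in view. Such genes describe the members and are no test of the label. Pi16, Ly6a and Thy1 do not speak for it, and the summed list was higher in members but not at the edge of the rule. Members had that sum at 3134 CPM (3073 to 3197). Pdgfra cells that passed the exclusions and had neither chosen gene had it at 2633 CPM (2601 to 2665). The 25 members with 1 Clec3b and 2 Mfap5 UMIs had it at 2656 CPM (2464 to 2860), an interval that holds the value of those cells. Gpc3 and Igfbp5 weigh heavily on this sum, so it says little about the other genes. In the 230 members without Dpp4 at 4000 UMIs, Gpc3 was at 858 CPM and Igfbp5 at 547 CPM.

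**Figure D2:**
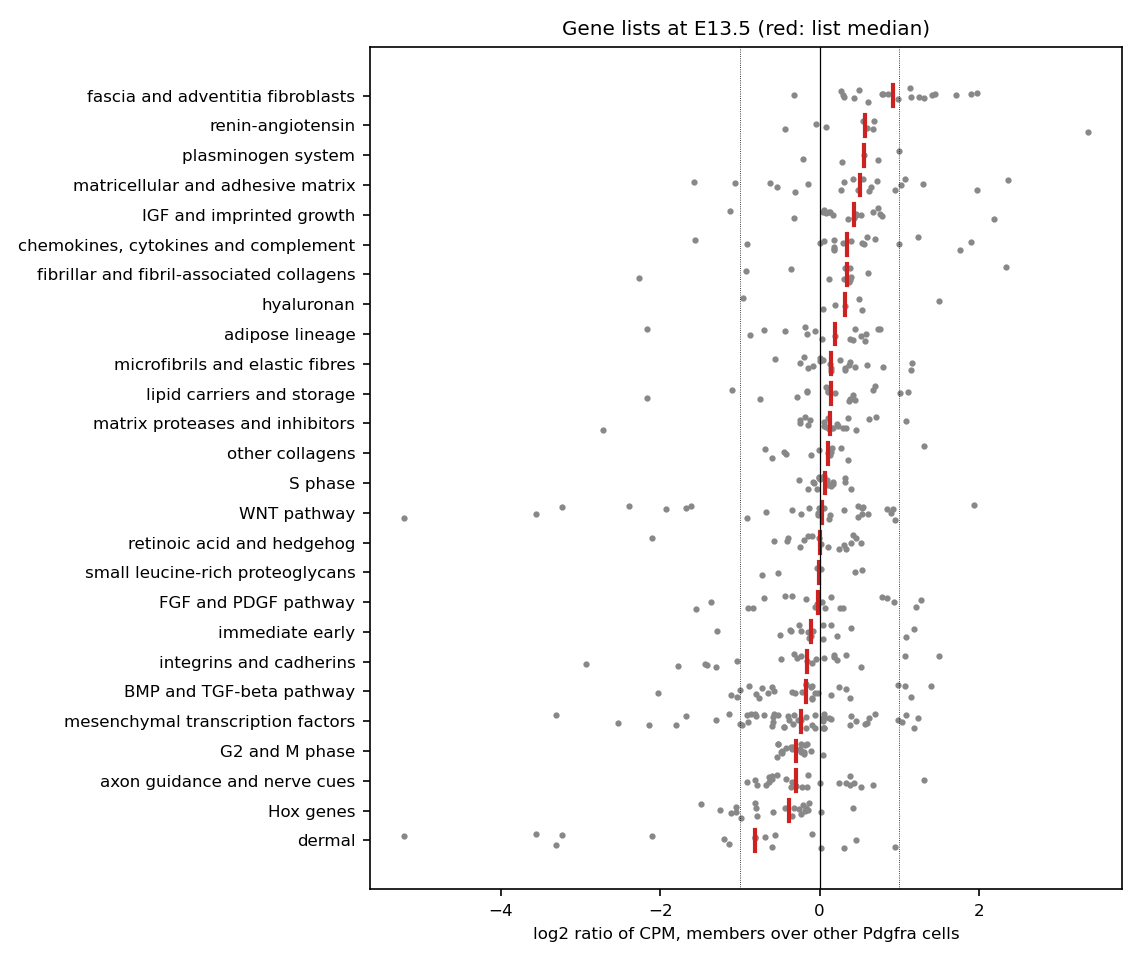
Log2 ratio of CPM in members over other Pdgfra cells (horizontal axis) for the described genes of 26 lists (rows), with each gene a grey point and each list's median a red bar, and dotted lines at a 2-fold difference. The list of fascia and adventitia fibroblasts has the highest median (0.92) and the dermal list the lowest (-0.81).

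Among matrix genes the differences lay in single members of each class. Col5a3, an uncommon chain of collagen V, was at 19.7 CPM in members and 3.88 CPM in the others (2.34, 1.89 to 2.78), found in 41 members. It was the 1 gene of 12 fibrillar and fibril-associated collagens past 2-fold upward. The major fibril genes were higher by less, with Col1a1 at 3266 against 2640 CPM (0.31), Col1a2 at 2606 against 2092 CPM (0.32) and Col3a1 at 4402 against 3369 CPM (0.39). Col14a1, which coats collagen fibrils, was at 250 against 164 CPM (0.60, 0.50 to 0.71). The cartilage collagens Col2a1 (-2.27) and Col9a1 (-3.50) were lower. Of 13 other collagens, Col6a6 was past 2-fold (52.0 against 20.9 CPM, 1.32).

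The rest of the microfibril, which Mfap5 belongs to, was mostly higher by little. Of 21 genes described for microfibrils and elastic fibres, 2 were 2-fold higher, against 1.29% of all genes, and none was 2-fold lower. In all, 16 of the 21 lay above 0, against 4924 of the 10307 genes described, and the median was 0.15. Fbln2, a fibulin of elastic tissue, was at 321 against 144 CPM (1.16, 1.06 to 1.25). Fbn1, the main fibrillin, was at 200 against 115 CPM (0.80, 0.67 to 0.92). Its relative Fbn2 was at 359.2 against 358.9 CPM (0.00, -0.09 to 0.09), and Eln, the elastin gene, was at 79.2 against 79.0 CPM (0.01, -0.19 to 0.19). Mfap2 (-0.08) and Mfap4 (-0.15) were not higher either.

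Of 20 matricellular and adhesive matrix genes, 5 were 2-fold higher and 2 lower, with a median of 0.51. Tnxb encodes tenascin X, whose loss gives lax connective tissue in humans, and it was at 13.0 against 2.52 CPM (2.37, 1.80 to 2.91), in 33 members. Tnc, the tenascin of dense and growing matrix, went the other way at 15.2 against 45.4 CPM (-1.58, -2.02 to -1.16). Ccn3, Thbs3 (1.30), Smoc2 (1.08) and Nid2 (1.02) were the others past 2-fold upward and Matn4 the other downward (-1.06). The hyaluronan receptor gene Cd44 was at 109 against 38.5 CPM (1.50, 1.33 to 1.67), whereas the synthase Has2 was at 14.6 against 28.3 CPM (-0.96, -1.41 to -0.53). Of the plasminogen system, to which tetranectin binds, 5 genes were described and none passed 2-fold. The activator gene Plat was nearest, at 86.9 against 43.6 CPM (0.99, 0.80 to 1.18), and Plg itself had 0 UMIs in members.

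Against the other Pdgfra cells, renin was the 1 described gene of its pathway past 2-fold. Of 13 renin-angiotensin genes listed, 8 were at a level that could be described. Only Ren1 was 2-fold or more higher, against 1.29% of all genes, and none was 2-fold lower. In all, 6 of the 8 lay above 0, Ren1 included, against 4924 of the 10307 genes described, and the median log2 ratio was 0.57. Agt, the substrate of renin, had 3 UMIs in all 247 members, and Ace, which makes angiotensin II, had 0, which allows up to 1.17 CPM. The angiotensin receptor gene Agtr2 was well expressed in members, at 240 against 150 CPM (0.68, 0.57 to 0.79), in 77.7% of them. Agtr1a, the other receptor, was at 8.24 against 5.64 CPM (0.55, -0.10 to 1.14).

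Growth factor genes formed a mixed picture. Igfbp6, whose product binds IGF2, was at 67.8 CPM in members (59.1 to 77.6) against 14.9 CPM (log2 ratio 2.19, 1.95 to 2.42), in 79 members. Igf1 was at 804 against 468 CPM (0.78, 0.72 to 0.84). Of 19 genes of the IGF and imprinted growth list 17 lay above 0, against 4924 of the 10307 genes described. In that list 1 gene was 2-fold higher and 1 lower, against 1.29 and 2.02% of all genes. Igfbp2 was lower (133 against 291 CPM, -1.13). Wnt2, a WNT ligand, was at 53.9 against 14.1 CPM (1.94, 1.68 to 2.19), and the secreted antagonist Sfrp2 was at 717 against 371 CPM (0.95). Of 30 WNT pathway genes 1 was 2-fold higher and 7 lower, against 1.29 and 2.02% of all genes. The lower ones were Axin2, Nkd1, Wnt4, Rspo1, Wif1, Lef1 and Dkk1. Fst, the follistatin gene, whose product traps activins, was at 140 against 53.0 CPM (1.40, 1.25 to 1.55), and Inhba, an activin subunit gene, was at 9.83 against 39.9 CPM (-2.02). Kitl (1.28) and Fgf18 (1.21) were the 2 of 21 FGF and PDGF genes, with Kitl counted among them, that passed 2-fold upward.

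Other genes named by the size rule belonged to no single class. Tppp3, a tubulin-binding protein gene that also marks tendon sheath cells, was at 114 against 21.5 CPM (2.41, 2.22 to 2.59) and was found in 107 members. Tek, the angiopoietin receptor gene of endothelium, was at 19.02 against 4.72 CPM (2.01, 1.56 to 2.44), while the other endothelial markers were nearer to parity, with Cdh5 at 0.50 (0.00 to 0.96), Kdr at 0.46 (-0.20 to 1.06) and Emcn at -0.25 (-1.03 to 0.44). The gene Adm, for the vasodilator peptide adrenomedullin, was at 28.2 against 7.81 CPM (1.85). Dio3, which inactivates thyroid hormone, was at 26.9 against 8.11 CPM (1.73). Lgals9 (1.76), Anxa1 (1.70) and Rarres1 (2.10) followed, the last with 26 UMIs in 13 members. Plac9 was the most widespread of the 15 named genes, at 603 against 224 CPM (1.43, 1.36 to 1.50) and in 88.7% of members.

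**Figure D3:**
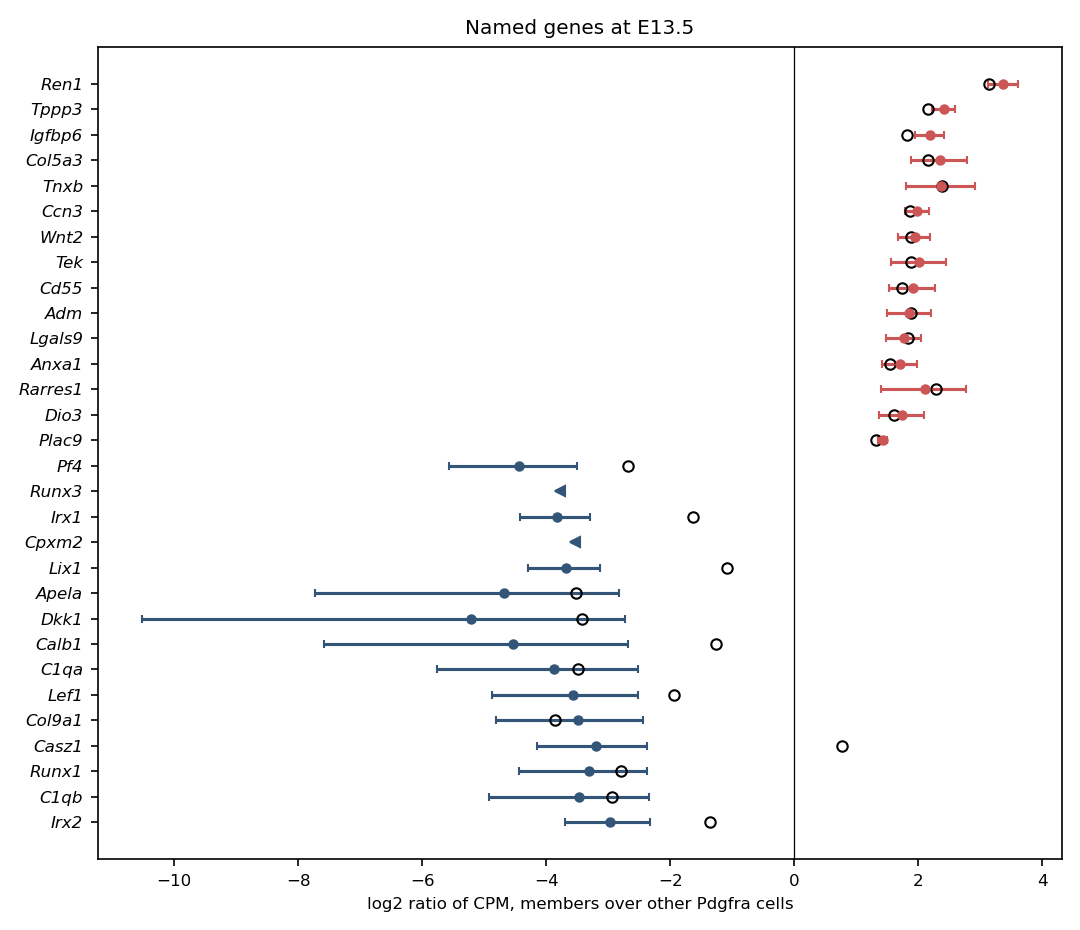
Log2 ratio of CPM (horizontal axis) for the 15 genes named as higher (red) and the 15 named as lower (blue) in members than in other Pdgfra cells, with 95% counting intervals. Arrowheads are bounds for genes with 0 UMIs in members, and open circles are ratios against the other Pdgfra cells that pass the exclusions. The higher genes change little between both comparisons, and Casz1 changes side.

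The genes lower in members were led by 2 kinds. Upper dermis genes made up the first, and the exclusion of Apcdd1, Sp5 and Nrgn removes such cells from the members and not from the comparison. Irx1 was at 8.88 against 127 CPM (-3.83, -4.43 to -3.30), and against the Pdgfra cells that pass the exclusions its log2 ratio was -1.63 (-2.24 to -1.08). Lix1 went from -3.68 to -1.09 in the same way, Irx2 from -2.97 to -1.36 and Lef1, a transcription factor of WNT signalling, from -3.56 to -1.94. Calb1, with 2 UMIs in members, went from -4.54 (-7.58 to -2.68) to -1.26 (-4.38 to 0.75), and Casz1 from -3.19 to 0.76 (-0.31 to 1.73), so that the intervals of these 2 genes then included 0. Apela (2 UMIs, -4.68, -7.73 to -2.82) and Dkk1 (1 UMI, -5.22, -10.53 to -2.73) rest on 1 or 2 UMIs and stayed low against cells passing the exclusions, at -3.52 (-6.58 to -1.64) and -3.42 (-8.75 to -0.88). Runx3 and Cpxm2 had 0 UMIs in members against 13.1 and 11.0 CPM, which with 3 UMIs in place of 0 is a log2 ratio of -3.78 and -3.53 or lower. Against cells passing the exclusions, the Runx3 bound was -0.89 and the Cpxm2 bound stayed at -1.83 or lower in every alternative. Runx1 was no gene of the upper dermis alone, since it was at 58.0 CPM in the tendon gate given below. Its ratio stayed low, at -3.30 and -2.80.

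The second kind was genes of other cell types. Pf4 (2.85 against 61.6 CPM, -4.43), C1qa (1.27 against 18.7 CPM, -3.88) and C1qb (1.90 against 21.1 CPM, -3.47) are macrophage or megakaryocyte genes. Few cells of either group carried them. Pf4 was found in 2.02% of members and 2.17% of the others, C1qa in 1.21 and 2.01%, and C1qb in 2.02 and 2.23%. These ratios thus describe the level in a few comparison cells and do not part members from most Pdgfra cells. The summed macrophage list was at 10.5 CPM in members and 92.7 CPM in the other Pdgfra cells, with Ptprc at 0 in members. Mast cell markers were at 5.71 against 31.2 CPM, with Cma1, Mcpt4 and Gata2 at 0, and erythroid genes at 2486 against 7427 CPM. The part of these cells and of their RNA in the lower genes was not tested. The sums of the other lists were nearer to each other, with muscle at 82.4 against 90.0 CPM, neurons at 54.8 against 69.6, epidermis at 28.2 against 41.9 (with 37 of the 43 Krt15 UMIs of members in 1 cell), Schwann and neural crest at 16.2 against 13.4, and meningeal genes at 82.1 against 87.4, with Slc13a3 at 0. Neural progenitor genes were at 187 against 147 CPM, with Sox1 and Pax6 at 0, and Fabp7 made up 184 CPM of the first value, while a single member held 77.1% of its 581 UMIs. Endothelial markers were at 47.9 against 28.0 CPM, mesothelial at 19.3 against 10.7 and mural at 76.1 against 47.3. Of the mural genes Abcc9 (1.34) and Kcnj8 (1.14) were higher and Rgs5 had 2 UMIs. The fibroblast list was at 12076 against 9623 CPM and the adipose precursor list at 231 against 196 CPM, with Pparg and Cebpa at 0 by the rule and Ebf2 at 188 against 131 CPM. Chondrogenic genes were at 37.1 against 111 CPM, with Matn1 at 0, tendon genes at 64.7 against 130 CPM and upper dermis genes at 28.2 against 294 CPM, the last 2 set in part by the rule.

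The remaining lists are given by their counts. The dermal list had 7 of 17 genes lower and none higher, among them Crabp1, a carrier of retinoic acid (190 against 817 CPM, -2.10), and Trps1 (28.2 against 64.8 CPM, -1.20), with the exclusion of upper dermis genes acting on it as above. The adipose list had 1 of 17 lower, the fatty acid carrier gene Fabp4 (2.22 against 9.95 CPM, -2.17), and none higher, while Dlk1, a surface protein of preadipocytes, was at 2836 against 1709 CPM (0.73, 0.70 to 0.76). Of 18 chemokine, cytokine and complement genes, Cd55, Lgals9 and Cxcl13 (1.24) were higher and Ccl2 (-1.56) lower. Of 30 genes of BMP and TGF-beta signalling 3 were higher, Fst, Chrdl1 (1.14) and Bmp7 (1.07), and 3 lower. Of 25 axon guidance and nerve cue genes, Sema3c was the 1 past 2-fold. Of 21 integrin and cadherin genes, Cd44 and Cdh4 (1.08) were higher and 6 lower, led by Itga4 (1.58 against 12.1 CPM, -2.94). Matrix proteases had Adamts5 higher (1.08) and Htra1 lower (-2.72) among 22. The lipid list had Vldlr (1.12) and Fabp3 (1.01) higher and 2 lower among 18, and of 18 retinoic acid and hedgehog genes Crabp1 was the 1 lower. Of 6 small leucine-rich proteoglycans none passed 2-fold.

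Of 55 mesenchymal transcription factor genes described, 4 were 2-fold higher and 7 lower, against 1.29 and 2.02% of all genes, with a median of -0.23. Meox2, a homeobox gene of somite derivatives, was at 170 against 71.8 CPM (1.24, 1.11 to 1.38), Klf4 at 263 against 116 CPM (1.18), Klf2 at 271 against 128 CPM (1.09) and Six2 at 15.2 against 7.43 CPM (1.03). Osr1, a factor of irregular connective tissue, was at 199 against 132 CPM (0.59, 0.47 to 0.71). Twist2, high in dermis, was at 104 against 229 CPM (-1.14), Pax1 at 2.54 against 14.6 CPM (-2.53) and Pitx1 at 3.17 against 14.0 CPM (-2.14). Of 22 Hox genes none was 2-fold higher, 5 were lower and 2 lay above 0, with a median of -0.39. The lower ones were Hoxb9, Hoxc5, Hoxc6, Hoxc8 and Hoxd8, at log2 ratios from -1.05 to -1.49. Cycling genes differed by less, with medians of 0.07 over 20 S phase genes and -0.29 over 20 genes of G2 and M phase, none of them 2-fold apart.

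Each of 4 neighbouring mesenchymal gates, chosen by the UMIs of 1 to 3 genes, was set beside the members. They were 150 adipogenic cells (2 or more UMIs of Pparg and Cebpa), 212 tendon cells (3 or more of Scx and Tnmd), 785 upper dermis cells (2 or more of Apcdd1, Sp5 and Nrgn) and 132 Dpt cells (2 or more of Dpt, a gene of dermal fibroblasts). Against the adipogenic gate 3.85% of genes were 2-fold or more higher in members and 2.62% lower. The shares were 3.35 and 3.18% against tendon, 4.74 and 4.65% against upper dermis, and 2.80 and 3.08% against Dpt. The comparisons share the members, so they are not independent of each other.

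Ren1 parted the members from all 4. It was at 86.9 CPM in members, 9.64 in the adipogenic gate, 4.22 in the tendon gate, 3.01 in the Dpt gate and 0.957 in the upper dermis gate, and the intervals of the last 3 overlap in part. Fascia genes did not do so equally. The median log2 ratio of that list was 0.70 against the adipogenic gate, 1.05 against tendon, 1.17 against upper dermis and 0.24 against Dpt. Cd55 was at 26.3 CPM in members and 20.5 CPM in the Dpt gate (log2 ratio 0.36, -0.23 to 0.98), an interval that includes 0, and Agtr2 was at 240 and 255 CPM. Dpt in turn was at 53.6 CPM in members, against 11.0 and 9.98 CPM in the adipogenic and tendon gates. Of the renin-angiotensin genes described, Ren1 included, 4 of 7 were 2-fold or more higher in members than in the adipogenic gate. It was 3 of 7 against tendon, 2 of 8 against upper dermis and 1 of 8 against Dpt. The shares of all genes were 3.85, 3.35, 4.74 and 2.80% in the same order.

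**Figure D4:**
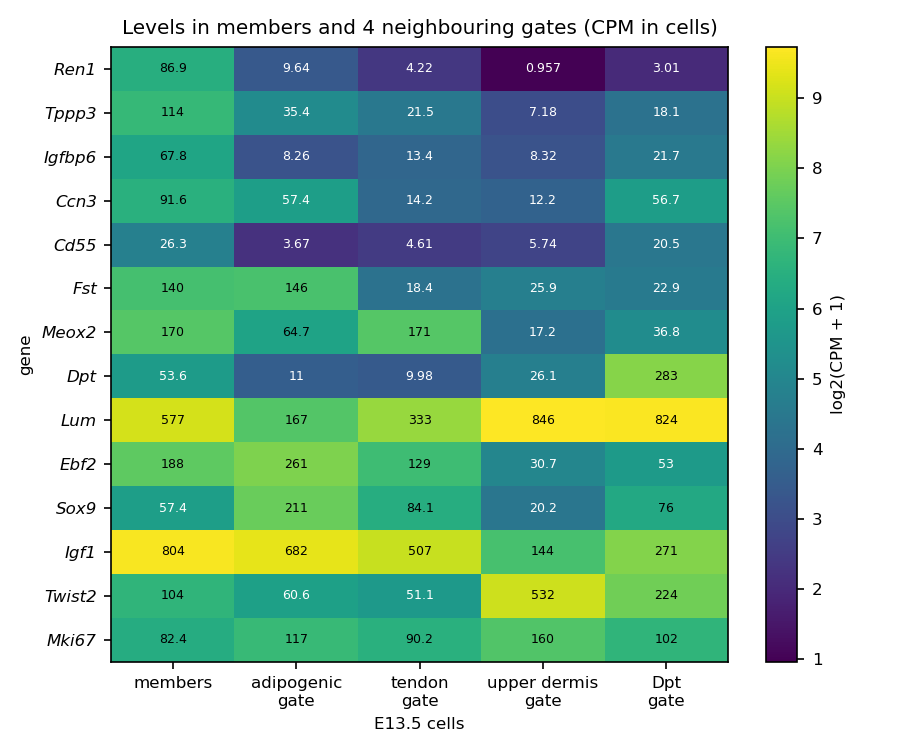
CPM (number in each field, colour on a log2 scale) of 14 genes (rows) in members and 4 neighbouring gates of E13.5 cells (columns). Ren1 is highest in members, Fst is shared with the adipogenic gate, Meox2 with the tendon gate and Lum is highest in the upper dermis and Dpt gates. Dpt chose the last column.

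Members shared other genes with single neighbours. Fst was at 140 CPM in members and 146 CPM in the adipogenic gate, against 18.4 to 25.9 CPM in the other gates. Meox2 was at 170 CPM in members and 171 CPM in the tendon gate (log2 ratio -0.01, -0.20 to 0.17), against 64.7 CPM or less elsewhere. Ebf2, an early factor of brown adipose precursors, was at 188 CPM in members, 261 in the adipogenic gate, 129 in the tendon gate, 53.0 in the Dpt gate and 30.7 in the upper dermis gate. Sox9, the other gene of the study's marker combination, was at 57.4 CPM in members and 211 CPM in the adipogenic gate. Igf1 was at 804 and 682 CPM in the same 2 groups.

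By the size rule the genes that led the comparison with the adipogenic gate were Ptgds, Ren1, Igfbp6, Cemip and Slc7a11 on the higher side. Ptgds and Slc7a11 were each found in 2.02% of members, so their ratios describe a few cells. On the lower side stood Cx3cr1, Mir142hg, Ctss, C1qa and Ccl3, all genes of macrophages, whose summed list was at 255 CPM in that gate. Each of these genes was found in 3.33 to 5.33% of the cells of the gate. The part of macrophage RNA there was not tested. Against the tendon gate the higher genes were Cxcl13, Ren1, Fst, Kitl and Ccn3, and the lower ones Cyp26a1, Runx1, Cpm, Htra1 and Tnn. Against upper dermis they were Ren1, Tppp3, Tnxb, Col5a3 and Meox2, and Runx3, Pf4, Irx1, Lix1 and Cpxm2. Of these, Pf4 was found in 2.02% of members and 1.78% of the cells of that gate. Against the Dpt gate they were Ren1, Fst, Tppp3, Kank1 and Ptgds, and Col2a1, Cnmd, Gm49708, Rgs5 and Irx1. Ptgds rests here on the same few members, and Rgs5 was found in 3.79% of the Dpt cells.

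The members did not form 1 cluster. All E13.5 cells with a Pdgfra UMI and the members were clustered with the 9 rule genes and Ren1 kept out, which gave 22 clusters, and 17 of them held at least 1 member. The leading cluster held 94 members (38.1%, 32.0 to 44.4) and 7.19% of the other cells, and the leading 2 together held 54.7% of members and 17.5% of the others. With the resolution doubled the leading cluster held 28.3% of members, so the share depends on that choice. In the leading cluster 222 cells were not members. Of these, 56.8% had no Clec3b UMI, 69.8% had fewer than 2 Mfap5 UMIs and 14.0% had both genes but met an exclusion. Their Ren1 level was 38.1 CPM (30.5 to 47.0), against 143 CPM (121 to 168) in the 94 members there.

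All 15 genes named as higher were 2-fold or more higher in the members outside that cluster too, read against the other cells outside it. The 15 genes had been chosen by their ratios over all members, the 153 outside that cluster included. That count is therefore set in part by the choice of genes and is no test. Within the leading cluster 7 of the 15 were 2-fold or more higher than in the other cells there, and the other 8 were not, from Plac9 at 0.25 (0.13 to 0.38) and Adm at 0.59 to Tnxb and Dio3 at 0.93. The 153 members elsewhere had Ren1 at 60.0 CPM against 6.45 CPM in the 2867 other cells elsewhere (log2 ratio 3.22, 2.89 to 3.54). Igfbp6 was at 45.5 against 13.8 CPM (1.72), Tppp3 at 74.0 against 16.9 CPM (2.14), Ccn3 at 76.9 against 20.8 CPM (1.88) and Cd55 at 26.2 against 6.45 CPM (2.03). Wnt2 was higher in members elsewhere (66.5 CPM) than in those of the leading cluster (27.4 CPM), and Tnxb the reverse (5.62 and 28.4 CPM). Dividing cells were outside the leading cluster as well, with Mki67 at 3.92 CPM in its members and 120 CPM in the others.

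Members with and without Ren1 differed in more than Ren1. Thinned to 4000 UMIs, 43 members had a Ren1 UMI and 204 did not, with median depths of 10889 and 11458 UMIs. Igfbp6 was at 197 CPM in the former and 41.9 CPM in the latter (log2 ratio 2.24, 1.84 to 2.64). Plac8 was at 93.0 against 17.9 CPM (2.38, 1.77 to 2.99), though a single member held 19.8% of its UMIs. Tnxb was at 32.3 against 9.13 CPM (1.82), Col8a1 at 41.8 against 9.51 CPM (2.13), Anxa3 at 182 against 81.4 CPM (1.16) and Cd55 at 47.4 against 22.1 CPM (1.10, 0.37 to 1.80). Ccn3 (0.23, -0.22 to 0.66) and Cd34 (0.22, -0.28 to 0.69) were near parity. Igfbp6, Tnxb and Cd55 were thus higher in the members that had Ren1, beyond counting error, and for Ccn3 and Cd34 the interval included 0.

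Some Hox genes also differed along this line. Of the 22 described, 4 had an interval below 0, 3 above 0 and 15 that included 0. The same share over all genes was not counted in this split, so these counts are not read as a trait of Hox genes. Hoxc6 had 1 UMI in the 43 members with Ren1 and 76 in the others (log2 ratio -3.93, -9.25 to -1.41). Hoxc8 had 3 and 78 UMIs (-2.38, -4.69 to -0.78), Hoxa5 3 and 60 (-2.00, -4.32 to -0.39), and Hoxa10 1 and 53 (-3.41, -8.74 to -0.87). Hoxd4 was at 36.1 against 12.6 CPM (1.52, 0.63 to 2.38), Hoxd3 at 24.7 against 7.61 CPM (1.70, 0.57 to 2.78) and Hoxb2 at 104 against 66.2 CPM (0.66, 0.19 to 1.10). Hoxa7 at -0.04 (18 and 92 UMIs), Hoxb7 at -0.06 and Hoxa2 at 0.08 were among the 15. Tbx5, a factor of the lateral plate and forelimb, had 2 and 59 UMIs (-2.56). The split and these genes were looked at after their values were seen, over few UMIs.

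Other lines ran through the members too. Ebf2 was found in 113 (45.7%) at 4000 UMIs and in 72.1% at full depth. Members with it had Cxcl13 at 154 against 68.4 CPM (1.17) and Tppp3 at 158 against 80.2 CPM (0.98), and those without it had more Cemip (39.3 against 5.10 CPM), Efemp1 (108 against 42.3 CPM) and Tagln (133 against 48.1 CPM). Cxcl13 was carried by 26 members, 4 of which held 50% of its UMIs. Ptgds, at 354 UMIs, came from 5 members, and 1 member held 86.0% of the 43 Krt15 UMIs, so that a ratio of these genes describes a few cells. Top2a or Mki67 was found in 66 members (26.7%), where Ren1 was at 46.7 CPM against 107 CPM in the rest (-1.20, -1.68 to -0.76), while Igfbp6 was at 67.2 and 68.2 CPM.

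Before E13.5 no cell met the rule. At E12.5 it was 0 of 6140 cells, which allows a share of up to 0.0601%, and at E11.5 0 of 6313 cells, up to 0.0584%, at median depths of 11066.5 and 12515 UMIs. Without the exclusions 1 cell at E12.5 and 0 at E11.5 had both genes. Mfap5 was detected more widely than Clec3b before E13.5. At E12.5, 135 cells had at least 2 Mfap5 UMIs and 29 had Clec3b, and in cells with a Pdgfra UMI Mfap5 went from 1.56 CPM on the first day through 16.1 to 84.1 CPM on the last. Clec3b was at 0.499, 0.343 and 41.4 CPM in the same order. Thinned to 4000 UMIs before the rule, 100 cells of E13.5 met it.

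**Figure D5:**
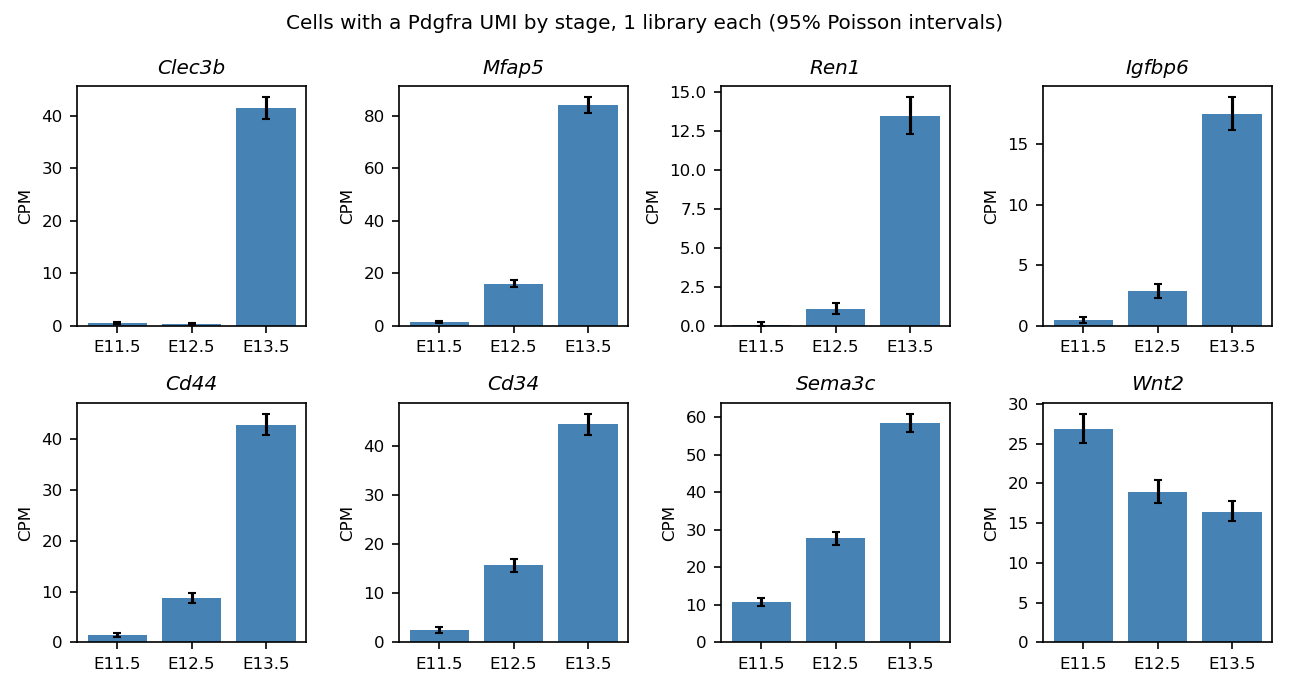
CPM (vertical axes, from 0) of 8 genes in all cells with a Pdgfra UMI at 3 stages (horizontal axis, 1 library each), with 95% Poisson intervals. Clec3b is at 0.343 CPM at E12.5 and 41.4 CPM at E13.5, Mfap5, Cd34 and Sema3c are already above their E11.5 levels at E12.5, and Wnt2 is highest at E11.5.

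Genes that marked the members had different histories in Pdgfra cells. Given from the first stage to the last, Ren1 was at 0.0624 (2 UMIs), 1.09 and 13.4 CPM, and Igfbp6 at 0.468, 2.86 and 17.5. Cd44 was at 1.47, 8.70 and 42.9 CPM, Cd34 at 2.46, 15.6 and 44.3, and Sema3c at 10.8, 27.7 and 58.4. Wnt2 was at 26.9, 18.96 and 16.5 CPM, so the gene was present in mesenchyme before any member was found. Stage, litter and library are the same variable here and cannot be told apart, and the sex of the pooled embryos also differed with it (Xist in 60.5, 24.6 and 96.4% of Pdgfra cells at 4000 UMIs).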

How the data were processed

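The authors deposited raw UMI counts for each barcode, empty droplets included, without normalisation, made with Cell Ranger 8.0.1 on GRCm39, per the submitters' processing notes; the kit was 10x 3' version 3.1, per the labels' protocols. Which annotation release was used is not stated in the labels or notes, and no coordinates were used. UMIs were summed over the cells of a group and scaled to CPM, with exact Poisson, Clopper-Pearson or conditional binomial intervals at 95%. The interval code was checked on simulated data. In a ratio, a gene at 0 UMIs was bounded at 3. Genes with a mean under 5 CPM were left out of counts. Doublets were called with scrublet in scanpy 1.11.5 and kept, with an alternative without them. Clusters used 2000 variable genes, 30 components, 15 neighbours and Leiden (igraph 0.11.9) at resolution 1. Splits of members used cells thinned to 4000 UMIs and levels from all their UMIs.

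The members, gene lists, gates and alternatives were chosen with earlier results of these data known. Named genes were the 15 with the highest lower bound and the 15 with the lowest upper bound of the log2 ratio (5 each per gate), without rule, mitochondrial, haemoglobin, Xist and Y-linked genes; genes of the lists could also be named. Genes named in the splits were picked among those past 20 CPM on average and from the lists, after their values were seen. Ratios between groups of 1 library have no test.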

Additional observations from a re-analysis of the deposited data

How the results depend on the processing

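The 15 higher genes named were 2-fold or more higher under all 18 alternatives, and Ren1 ranged from a log2 ratio of 2.83 to 3.55. The settings with no filter on low genes and with a mean of 20 CPM or more cannot change the ratio of a gene. The genes were also chosen by their ratios in the same cells, so these counts describe how the ratios move and are no test. Of the 15 lower genes 13 stayed 2-fold lower in all of them; Runx3 came to -0.89 and Casz1 reversed to 0.76 against the Pdgfra cells that pass the exclusions. The median of the fascia list ranged from 0.64 to 1.16 and that of the dermal list from -0.94 to -0.23. The number of members was 153 with at least 2 Clec3b UMIs, 401 with no exclusion genes and 155 at a mitochondrial maximum of 5%, and the rule met 100 cells once cells were thinned first. The genes 2-fold higher and lower numbered 261 and 373 with cells thinned to 4000 UMIs, 1534 and 6113 with no filter on low genes, and 65 and 54 at a mean of 20 CPM or more, since these settings change the counts per gene or the genes read. The leading cluster held 28.3% of members with the resolution doubled. Ren1 was found in 17.4% of members thinned and 24.3% unthinned. Comparison cells with at least 50 collagen UMIs, free RNA subtracted by Myog and members outside the leading cluster only were alternatives chosen after seeing the data, with 123, 194 and 125 higher genes and 200, 307 and 210 lower ones. No paired analysis was possible because each stage is 1 library with no replicate number. A gene under 3 UMIs in members, 0.951 CPM, could not be told from absence.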
